A study of Homo sapiens with 26 samples.

Results

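The 7 nucleoside transporter genes SLC29A1, SLC29A2, SLC29A3, SLC29A4, SLC28A1, SLC28A2 and SLC28A3 were read, by Ensembl identifier, from a table of 41078 genes in 26 messenger RNA libraries. Gemcitabine, a deoxycytidine analogue used against pancreatic ductal adenocarcinoma (PDAC), is hydrophilic and needs a transporter to cross the plasma membrane. Equilibrative transporters (the SLC29 family) let nucleosides pass down their gradient in either direction, and concentrative transporters (the SLC28 family) couple uptake to sodium. SLC29A1 encodes ENT1, known as the main route of gemcitabine into pancreatic cancer cells.

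Each library came from 1 single cell-derived cell line (SCDCL) grown after limiting dilution of BxPC3 (labelled on 12 libraries; a classical PDAC line) or Panc-1 (labelled on 14; a basal-like PDAC line). All SCDCLs were kept in DMEM with 10% FBS. Gemcitabine is given as treatment in all labels, but per the methods RNA was taken at 80% confluency, with no drug mentioned at that step. No label gives how an SCDCL responded to gemcitabine, so response was not analysed here. Every SCDCL is 1 clone sequenced once, so the spread between libraries joins clone, culture and library preparation.

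SMAD4, a gene that BxPC3 is known to have lost, went against the labels. It was at most 0.044 TPM (transcripts scaled for length and library total) in 12 libraries, 5 of them labelled BxPC3 (16, 21, 24, 25 and 26) and 7 labelled Panc-1 (1 to 7). In the other 14 libraries, 7 with each label, it was between 28.1 and 52.2 TPM. The text therefore speaks of SMAD4-low and SMAD4-expressing libraries, and of libraries labelled BxPC3 or Panc-1. The SMAD4 groups, of 12 and 14 libraries, have the same sizes as the groups labelled BxPC3 and Panc-1. Why SMAD4 and the labels disagree was not tested. Below, "with SMAD4" names the SMAD4-expressing group and not an effect of SMAD4. The epithelial cadherin CDH1 was between 90.8 and 198 TPM in the SMAD4-low libraries and at most 7.74 TPM in the others, and vimentin (VIM) was at most 73.2 TPM against 3047 to 4526 TPM. Other markers were mixed. Of 5 epithelial markers, 2 were lower with SMAD4 without overlap and 3 overlapped. Among the 3, KRT19 had a lower median with SMAD4. KRT8 and KRT18 had higher ones (2053 and 1598 TPM against 461 and 521 TPM). Of 5 mesenchymal markers, 3 were higher with SMAD4 without overlap and 1 overlapped. The last, FN1, was lower (median 1.33 against 32.6 TPM). CDKN2A was listed at 0 in all 26. Some markers of other cell types were expressed. The 4 leukocyte markers summed to 5.71 to 27.9 TPM in the SMAD4-low libraries and 42.5 to 141 TPM in the others, nearly all of it CD68, a lysosomal glycoprotein gene, with PTPRC at most 0.535 TPM. The 5 fibroblast markers summed to 9.72 to 28.6 TPM and 2.68 to 39.4 TPM, led by COL1A1, with LUM at most 0.243 TPM. The 3 endothelial markers summed to 3.16 to 16.97 TPM and 0.321 to 5.39 TPM, with CDH5 between 1.04 and 13.6 TPM in the SMAD4-low libraries and at most 0.043 TPM in the others. The 2 erythrocyte markers summed to at most 5.56 TPM. Their part in the results was not tested. The SMAD4 groups were set from measured values of the same libraries, so they are described without a test. Totals were between 27035724 and 34945608 estimated counts per library.

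Transcripts of the SLC29 family made up nearly all nucleoside transporter mRNA, and SLC29A1 led in each of the 26 libraries. The TPM of the 7 genes added up to a median of 67.3 (52.6 to 99.6) in the SMAD4-low libraries and 281.6 (194 to 440) in the SMAD4-expressing libraries. SLC29A1 was a median of 76.4% of that sum in the former and 82.8% in the latter. In the SMAD4-low libraries the order in TPM, a per-length scale, was SLC29A1, SLC29A2, SLC29A3 and SLC29A4 in each of the 12. In the SMAD4-expressing libraries SLC29A1 was highest and SLC29A3 lowest of these 4 in each of the 14. Of the middle pair, SLC29A2 was above SLC29A4 in 12 of 14 (medians 28.9 and 18.9 TPM). That order did not hold in every library and was not tested. SLC28A1, SLC28A2 and SLC28A3 were below 1 TPM in every library.

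**Figure D1:**
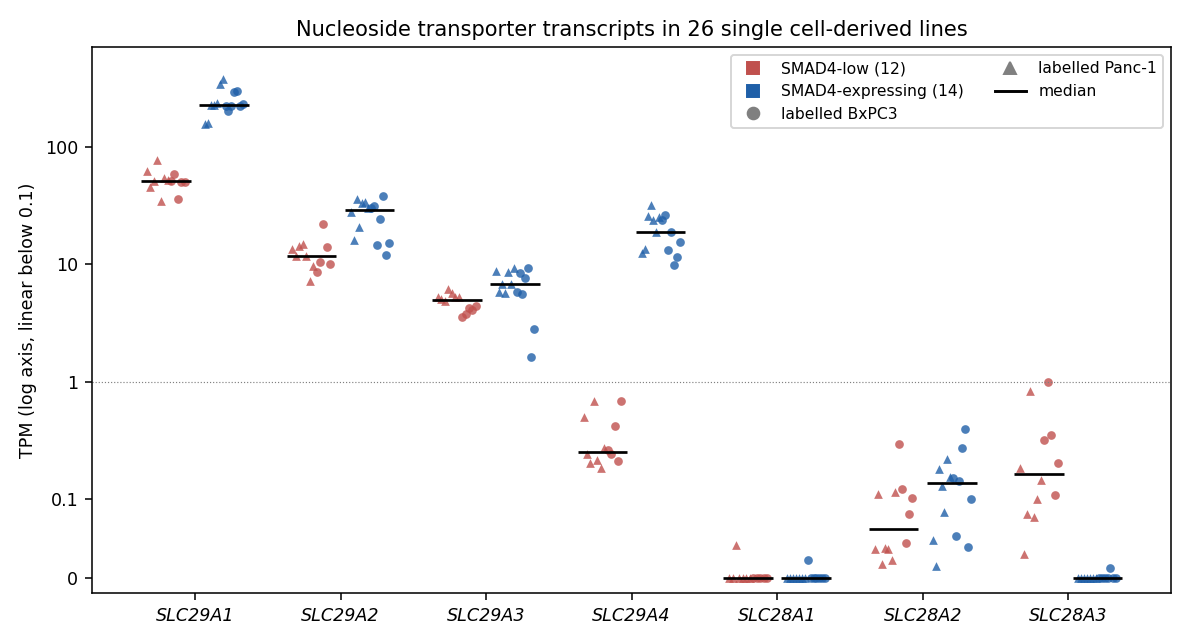
TPM of the 7 transporter genes (vertical axis, logarithmic and linear below 0.1) in each library, with SMAD4-low libraries in red and SMAD4-expressing libraries in blue, circles for libraries labelled BxPC3, triangles for Panc-1, and black lines for group medians. The red and blue points are apart for SLC29A1 and SLC29A4, overlap for SLC29A2 and SLC29A3, and lie below the dotted line at 1 TPM for the 3 SLC28 genes.

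Of the 4 members with a mean of at least 1 TPM in either SMAD4 group, 2 (SLC29A1 and SLC29A4) had ranges that did not overlap between the groups, both higher with SMAD4. The background was high: ranges did not overlap for 30.6% of the 15569 genes with a mean of at least 1 TPM in either group, 15.6% of them higher and 15.1% lower with SMAD4. The median difference over those genes was 0.01 on the log2(TPM + 1) scale. The 2 of 4 is too small a count to be set apart from that background. As in any bulk sample, fewer transcribing cells and less RNA per cell cannot be told apart.

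SLC29A1 lies on chromosome 6 (GRCh38, chr6:44219553-44234142, plus strand). In the SMAD4-low libraries it was between 34.7 TPM (library 5) and 77.1 TPM (library 4), with a median of 50.7 TPM. In the SMAD4-expressing libraries it was between 156 TPM (library 8) and 375 TPM (library 14), with a median of 225 TPM. The lowest SMAD4-expressing library was 2.02 times the highest SMAD4-low library, and the medians differed 4.44-fold. On the log2(TPM + 1) scale the mean difference was 2.19 ± 0.13 (SE, n = 12 and 14). Each value rested on 1210 to 13704 estimated counts.

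SLC29A4 encodes PMAT, a transporter of monoamines and other organic cations that also carries adenosine (chr7:5274369-5306912, plus strand). It was between 0.183 and 0.691 TPM in the SMAD4-low libraries, with a median of 0.253 TPM. In the SMAD4-expressing libraries it was between 9.92 TPM (library 20) and 31.9 TPM (library 11), with a median of 18.9 TPM. The medians differed 74.6-fold, and the mean difference was 3.85 ± 0.14 on the log2(TPM + 1) scale, which understates the change of a gene this low in 1 group. The SMAD4-low values rested on 16 to 63 estimated counts and the others on 770 to 2435. The mean transcript length assigned to the gene had a median of 5835 bases in the SMAD4-low libraries and 2635 bases (2271 to 3055) in the SMAD4-expressing ones. In libraries 1, 4 and 26, the SMAD4-low libraries with the most SLC29A4, it was 2740, 3524 and 3273 bases. The gene also overlaps TNRC18 on the opposite strand by 123 bases, and TNRC18 was at a median of 86.6 TPM and 110 TPM. Whether such reads add to the low values was not tested.

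The bases before the start sites are shown for the members whose groups did not overlap (SLC29A1 and SLC29A4) and for SLC29A3, whose groups did. They are the 250 bases before each RefSeq start in GRCh38.p14, on the gene's strand, from 5′ to 3′, with GGGCGG on either strand (the GC box bound by Sp1-type factors) in capitals. RefSeq gives SLC29A1 a pair of such windows. The first crosses the left GENCODE bound of SLC29A1, and the second lies inside the bounds. The window of SLC29A4 also lies inside that gene's GENCODE bounds. Windows for 4 of the 7 members were found, the fourth being SLC28A1.
SLC29A1, first start (chr6:44219365-44219614): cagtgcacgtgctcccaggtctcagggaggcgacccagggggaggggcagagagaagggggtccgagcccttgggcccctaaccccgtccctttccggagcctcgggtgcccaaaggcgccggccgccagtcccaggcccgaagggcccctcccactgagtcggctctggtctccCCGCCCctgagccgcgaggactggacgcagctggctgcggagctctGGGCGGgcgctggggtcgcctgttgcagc
SLC29A1, second start (chr6:44223345-44223594): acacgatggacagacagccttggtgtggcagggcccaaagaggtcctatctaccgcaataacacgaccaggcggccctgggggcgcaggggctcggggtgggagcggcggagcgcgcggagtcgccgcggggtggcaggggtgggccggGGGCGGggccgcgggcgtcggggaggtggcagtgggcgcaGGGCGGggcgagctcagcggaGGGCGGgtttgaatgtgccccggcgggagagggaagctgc
SLC29A4 (chr7:5282693-5282942): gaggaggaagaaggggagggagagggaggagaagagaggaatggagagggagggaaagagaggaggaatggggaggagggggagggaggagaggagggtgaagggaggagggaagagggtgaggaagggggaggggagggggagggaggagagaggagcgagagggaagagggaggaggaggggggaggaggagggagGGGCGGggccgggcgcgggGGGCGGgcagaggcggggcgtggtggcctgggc
SLC29A3 (chr10:71319009-71319258): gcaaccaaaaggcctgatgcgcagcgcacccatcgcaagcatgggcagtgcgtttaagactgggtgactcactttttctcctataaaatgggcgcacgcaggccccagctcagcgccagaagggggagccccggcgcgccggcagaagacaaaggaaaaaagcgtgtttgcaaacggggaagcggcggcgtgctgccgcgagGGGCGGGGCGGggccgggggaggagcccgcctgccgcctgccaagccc

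Matches to GGGCGG numbered 2 and 3 in the windows of SLC29A1, 2 in that of SLC29A4 and 2, sharing a base, in that of SLC29A3. Of 34788 promoter windows of the same length, 42.6% held at least 1 match. GC content was 73.2% and 74.4% for SLC29A1, 70.4% for SLC29A4 and 66.4% for SLC29A3, against a median of 58.0% over all windows. None of these windows held CCAAT or CACCTG on either strand, which were in 32.0% and 17.5% of all windows. The window of SLC29A3 held 1 match each to TATAAA (10.8% of all windows) and TGANTCA (6.59%), neither of which matched in the windows of SLC29A1 and SLC29A4. 

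SLC29A2 encodes ENT2, which carries purine and pyrimidine nucleosides and also nucleobases (chr11:66362521-66372214, minus strand). It was between 7.13 TPM (library 6) and 22.03 TPM (library 24) in the SMAD4-low libraries, with a median of 11.8 TPM. With SMAD4 expressed it was between 11.9 TPM (library 22) and 38.3 TPM (library 20), with a median of 28.9 TPM. The ranges overlapped, with 5 SMAD4-low libraries above the lowest SMAD4-expressing one and 5 SMAD4-expressing libraries below library 24. The medians differed 2.45-fold and the mean difference was 0.98 ± 0.18 on the log2(TPM + 1) scale.

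SLC29A3 encodes ENT3, a transporter of lysosomal and mitochondrial membranes (chr10:71319259-71381423, plus strand). It was between 3.52 and 6.13 TPM in the SMAD4-low libraries, with a median of 4.95 TPM. With SMAD4 expressed it was between 1.63 and 9.36 TPM, with a median of 6.77 TPM. Library 22 (1.63 TPM) and library 23 (2.82 TPM), both labelled BxPC3, were below every SMAD4-low library, and the other 12 were between 5.58 and 9.36 TPM. The mean difference was 0.32 ± 0.16 on the log2(TPM + 1) scale with all libraries and 0.52 without libraries 22 and 23, which were left out after their values had been seen.

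Of the concentrative transporters, SLC28A3 (CNT3, which carries purines and pyrimidines; chr9:84275457-84340758, minus strand) was at trace level in the SMAD4-low libraries. It was between 0.02995 TPM (library 2) and 0.987 TPM (library 21) there, with a median of 0.165 TPM and between 2.88 and 76.3 estimated counts. It was listed at 0 in 13 of the 14 SMAD4-expressing libraries and at 0.012 TPM in library 20. The listed TPM ranges were apart, but library 2 rested on 2.88 counts and a count of 0 allows up to 3, so it could not be told from the SMAD4-expressing libraries. The other 11 SMAD4-low libraries had more than 3 counts. Pooled over each group, 273 counts stood against 1 count, a ratio per total count of 307 with an exact 95% interval (Clopper-Pearson) of 54.7 to 12182. That interval covers counting error only, and a single count sets it. The counts are scaled from TPM and are not read counts, so the interval is approximate. Libraries 21 and 4 held 76.3 and 67.4 of the 273 counts. The mean transcript length assigned to SLC28A3 was 1872 bases in library 21, against a median of 4082 bases in the SMAD4-low libraries.

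SLC28A2 (CNT2, which prefers purines; chr15:45252234-45277846, plus strand) was between 0.018 and 0.294 TPM in the SMAD4-low libraries and between 0.015 and 0.399 TPM in the SMAD4-expressing ones. These values rested on 0.977 to 23.1 estimated counts, with under 3 counts in 6 SMAD4-low and 3 SMAD4-expressing libraries. The ranges overlapped, with medians of 0.062 and 0.137 TPM. The mean difference was 0.07 ± 0.04 on the log2(TPM + 1) scale. Pooled over the 12 and 14 libraries, 61.0 counts stood against 116 counts. No interval was computed for these pooled counts, so whether the groups differ in SLC28A2 was not tested. SLC28A1 (CNT1, which prefers pyrimidines; chr15:84884654-84945798, plus strand) was listed at 0 in 24 of 26 libraries. The exceptions were library 3, with 2 estimated counts, and library 15, with 1.01. A count of 0 allows up to 3 counts in a library, so all 26 libraries were within the floor for SLC28A1 and no fold was computed.

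The labels give the cell lines as groups, and no member passed the test between them. The study itself compared more resistant with more sensitive SCDCLs of each line, which the labels do not give. Each label holds SMAD4-low and SMAD4-expressing libraries, so the result concerns the labels as given. With edgeR's quasi-likelihood test over 16008 genes, 0 of the 4 members tested passed an adjusted p of 0.05, 0 had an unadjusted p under 0.05, and 0 passed by DESeq2. The background was 0% of genes called by edgeR (367 of them with p under 0.05 before adjustment), and DESeq2 called 2 genes. SLC29A1 was between 35.7 and 299 TPM in libraries labelled BxPC3 and between 34.7 and 375 TPM in those labelled Panc-1, with a log2 fold change (Panc-1 minus BxPC3) of -0.11 ± 0.43 (SE). SLC29A4 had a log2 fold change of 0.12 ± 0.92, so its interval leaves room for a large difference either way.

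With the SMAD4 group as a term, the standard errors were smaller and again 0 of 4 members were called by edgeR (0% of 16800 genes, 1263 with p under 0.05 before adjustment). By DESeq2 3 genes were called, with no member among them. SLC29A1 then differed by 0.08 ± 0.13, SLC29A2 by 0.10 ± 0.17 and SLC29A4 by 0.15 ± 0.24 on the log2 scale. SLC29A3 differed by 0.38 ± 0.18 (edgeR, unadjusted p = 0.0477, adjusted p = 0.659). None of the 6 members that edgeR could test passed for a label effect that differs between the SMAD4 groups (smallest adjusted p = 0.802), against 0% of 17456 genes called and 1357 with p under 0.05 before adjustment. DESeq2 called 15 genes and 0 members in that test.

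Taken within the SMAD4-low libraries alone, which was added after the data had been seen, SLC29A3 was between 3.52 and 4.37 TPM in the 5 libraries labelled BxPC3. It was between 4.86 and 6.13 TPM in the 7 labelled Panc-1, so the ranges did not overlap. That held for 1 of the 3 members with a mean of at least 1 TPM there and for 0.647% of 14375 genes. The log2 fold change was 0.46 ± 0.14 (edgeR, unadjusted p = 0.00618), which did not pass adjustment over 16124 genes (adjusted p = 0.405; DESeq2, adjusted p = 0.138). The background was 0% of those genes by edgeR, 1840 with p under 0.05 before adjustment and 35 called by DESeq2. Within the SMAD4-expressing libraries the labels overlapped for all 4 members that passed 1 TPM, against 0.0217% of 13826 genes that did not overlap, and SLC29A3 differed by 0.32 ± 0.31. There the background was 0% of 15161 genes by edgeR, with 700 under 0.05 before adjustment and 2 called by DESeq2.

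The spread of transporter levels among libraries of 1 SMAD4 group is given beside counting error, which leaves out culture and library preparation. In the SMAD4-low libraries the coefficient of variation (CV, the SD over the mean of TPM) was 21.9% for SLC29A1, 31.4% for SLC29A2 and 16.7% for SLC29A3. Counting error alone, taken from the median count of each gene, gave 2.19%, 3.69% and 6.25%. The error of assigning reads among transcripts was not measured here. The median gene had a CV of 22.8% among the same clones. SLC29A3 varied less between SMAD4-low libraries than most genes, with 18.6% of 14375 genes having a lower SD of log2(TPM + 1), and SLC29A1 was in the middle at 52.7%. The highest clone was 2.22 times the lowest for SLC29A1, 3.09 times for SLC29A2 and 1.74 times for SLC29A3.

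Among the SMAD4-expressing libraries all 4 members had an SD of log2(TPM + 1) above the median gene (0.29, n = 13826 genes). It was 0.36 for SLC29A1, 0.53 for SLC29A2, 0.56 for SLC29A3 and 0.50 for SLC29A4, and 66.4%, 85.3%, 87.2% and 83.1% of genes had a lower one. Counting error was at most 5.53% for these genes. The highest clone was 2.41 times the lowest for SLC29A1, 3.22 times for SLC29A2, 5.74 times for SLC29A3 and 3.22 times for SLC29A4. Libraries 22 and 23 set the value of SLC29A3. Without them its SD was 0.25, below that of the median gene, and its CV was 19.8% in place of 34.8%. Among all genes with a mean of at least 1 TPM in these libraries, 1.25% (173 of 13826) were lower in both libraries 22 and 23 than in each of the other 12. For SLC29A2, libraries 9, 18, 22 and 23 lay between 11.9 and 15.9 TPM, library 11 was at 20.5 TPM, and the other 9 lay between 24.1 and 38.3 TPM.

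**Figure D2:**
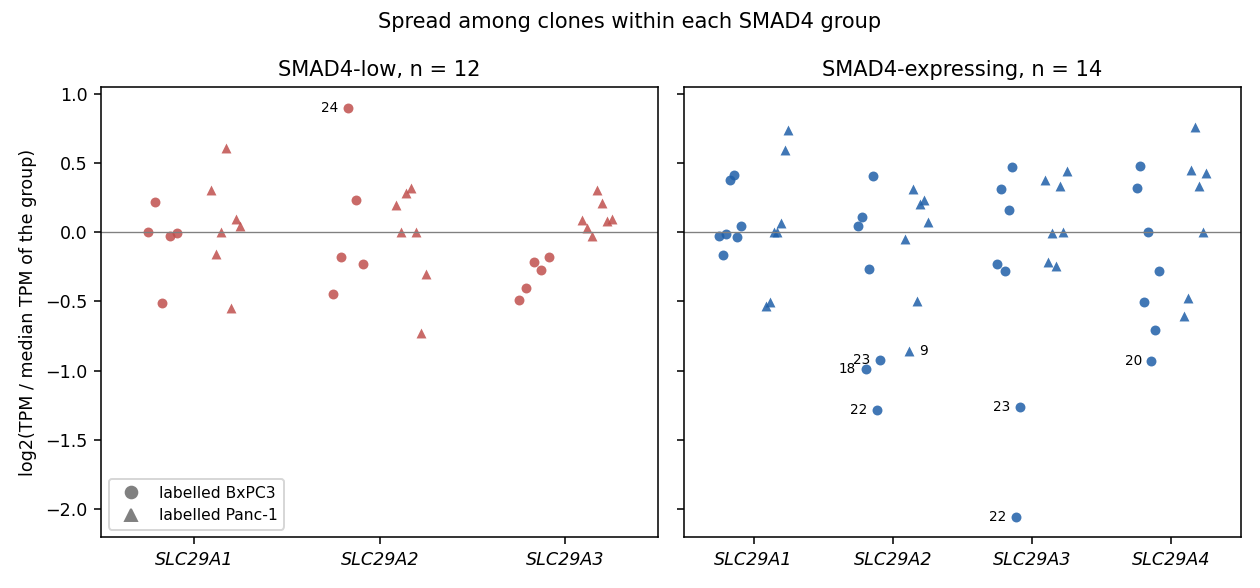
TPM of each member with a mean of at least 1 TPM in a group, as log2 of its ratio to the group's median (vertical axis), for the 12 SMAD4-low libraries (left) and the 14 SMAD4-expressing libraries (right), with circles for libraries labelled BxPC3, triangles for Panc-1, and library numbers beside points far from the median. On the left the circles of SLC29A3 lie below its triangles, and on the right libraries 22 and 23 lie far below the rest for SLC29A3.

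SLC29A2 and SLC29A3 varied together among the SMAD4-expressing clones. Over 14 libraries Pearson's r of log2(TPM + 1) was 0.80 (permutation test, two-sided, p = 0.00027, adjusted p = 0.00243 over 9 pairs) and Spearman's rho was 0.74 (p = 0.00331, adjusted p = 0.0298). Library 22 was lowest and library 20 highest for both genes. Without the libraries farthest from the median of SLC29A2 (18 and 22) r was 0.74 (permutation p = 0.00501). Without libraries 22 and 23 it was 0.66 (permutation p = 0.0211), and without 18, 22 and 23 it was 0.56 (permutation p = 0.0673). Both of those were computed after the values had been seen, and with all 3 libraries out the relation no longer passed. In the SMAD4-low libraries r of the same pair was 0.08 (permutation p = 0.811). The difference between the groups in r was not tested.

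The other 8 pairs did not pass, with adjusted permutation p between 0.592 and 0.811. SLC29A1, the most abundant member, had r between -0.22 and 0.37 with the others. With 12 and 14 libraries a moderate correlation can go unseen.

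Beside SLC29A2, the genes around it on chromosome 11 also differed between SMAD4-expressing clones. Its 3 most similar genes there, among 8739 with a mean of at least 10 TPM, were DHCR7 (the last enzyme of cholesterol synthesis, r = 0.95), TMEM135 (r = 0.92) and MEN1 (menin, r = 0.91), all on chromosome 11. Of the 50 most similar genes, 20 were on chromosome 11, which holds 6.36% of those genes. A median over the 225 genes within 10 Mb of SLC29A2, as a log2 deviation from the group median, was lowest in library 18 (-0.65), then library 22 (-0.27) and library 11 (-0.23), 3 libraries in which SLC29A2 was also below the group median. Pearson's r of SLC29A2 with that median was 0.68 (permutation p = 0.00535, adjusted p = 0.0375 over 7 relations) and Spearman's rho was 0.71 (adjusted p = 0.0395). The chromosome counts and the relations with genes within 10 Mb were added after the data had been seen. Their p-values are therefore not those of a planned test. Without libraries 18 and 22 r was 0.49 (permutation p = 0.101), so the relation rests on those libraries. Libraries 9 and 23 were low in SLC29A2 (15.9 and 15.3 TPM) with the genes around it near the group median (-0.004 and -0.05). The other 6 relations of a member with the genes within 10 Mb had adjusted p between 0.448 and 0.840.

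**Figure D3:**
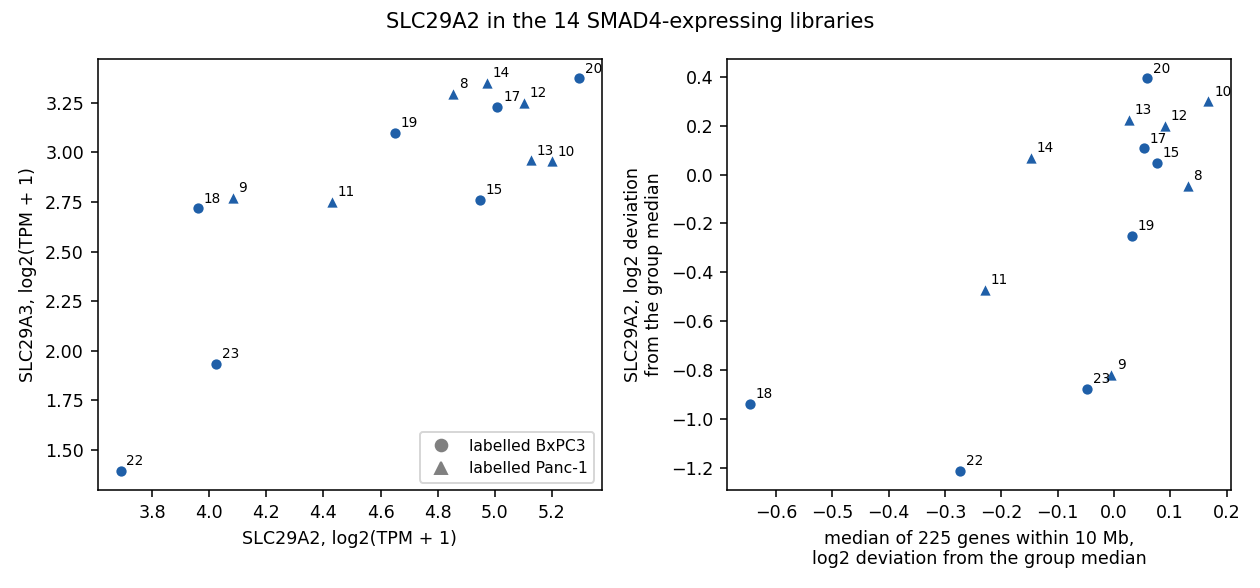
The 14 SMAD4-expressing libraries by number, circles labelled BxPC3 and triangles Panc-1: log2(TPM + 1) of SLC29A3 against SLC29A2 (left), and the log2 deviation of SLC29A2 from the group median against the median deviation of 225 genes within 10 Mb of it (right). Libraries 22 and 23 are at the lower left of the first panel, and library 18 stands alone at the left of the second.

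The genes beside SLC29A3 on chromosome 10 separated the SMAD4 groups far more than SLC29A3 did. Genes were counted if their mean reached 1 TPM in either group, so a gene could enter through 1 group alone. Of 16 such protein-coding genes within 1000 kb, 10 were higher with SMAD4 without overlap and 1 was lower. From CDH23, which starts 15.5 kb to the right of SLC29A3, to ANAPC16 (chr10:71396920-72235860), 7 such genes in a row (CDH23, VSIR, PSAP, CHST3, SPOCK2, ASCC1 and ANAPC16) were at most 1.74 TPM in every SMAD4-low library. PSAP, which encodes prosaposin, a precursor of lysosomal sphingolipid activators, was listed at 0 in all 12 SMAD4-low libraries and was between 1196 and 3588 TPM in the 14 others. ANAPC16, a subunit of the anaphase-promoting complex, was at a median of 0.461 TPM against 116 TPM. The 7 genes were picked as a run for low values without overlap in these same libraries. In the SMAD4-expressing libraries they were between 0.315 and 3588 TPM. The next gene after ANAPC16, DDIT4, was at 53.7 and 65.0 TPM.

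To the left of SLC29A3, the netrin receptor gene UNC5B, 16.4 kb away, went the other way, with 2.04 to 9.05 TPM in the SMAD4-low libraries and 0.134 to 0.643 TPM in the others. SLC29A3 itself was expressed on both sides of the split, as given above. For none of the 16 genes were libraries 22 and 23, in which SLC29A3 was low, both below the other 12 SMAD4-expressing libraries. Library 22 alone was below them for LRRC20 (9.29 TPM against at least 14.7 TPM), PSAP (1196 against at least 1364 TPM) and DDIT4 (13.6 against at least 16.7 TPM), and library 23 alone for VSIR (7.25 against at least 7.63 TPM).

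**Figure D4:**
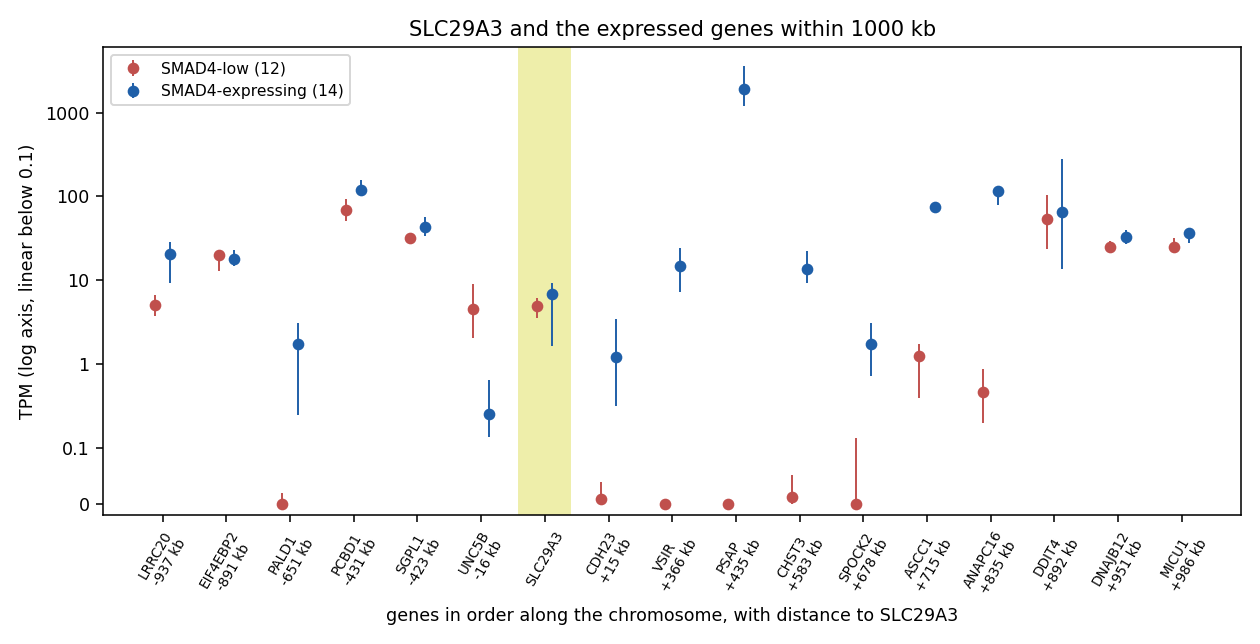
Median TPM (points) with the lowest and highest library (bars) for SLC29A3 (shaded) and the 16 expressed protein-coding genes within 1000 kb, in chromosome order with the distance in kb, on a logarithmic axis that is linear below 0.1. Red points of the SMAD4-low libraries lie at or near 0 from CDH23 to SPOCK2 and stay at most 1.74 TPM to ANAPC16, while the blue points reach 3588 TPM.

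Over all genes, 15.6% were higher and 15.1% lower with SMAD4 without overlap. Near SLC29A1, 3 of 25 expressed genes were higher with SMAD4 without overlap and 1 was lower. Its nearest neighbours were MYMX, 1.32 kb to the left (medians 0 and 1.85 TPM, overlapping), and HSP90AB1, 12.02 kb to the right (1131 and 1434 TPM, overlapping). CAPN11 differed 19.6-fold in median at 0.980 TPM or below. The medians of HSP90AB1 differed 1.27-fold, against 4.44-fold for SLC29A1. Near SLC29A4, 8 of 18 genes were higher and 0 lower, with WIPI2 to the left at 66.5 and 65.8 TPM and FBXL18 to the right at 21.3 and 11.3 TPM. RADIL was the gene there that differed over 10-fold (0.007 and 1.03 TPM).

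Near SLC29A2, 6 of 65 genes were higher and 8 lower. B4GAT1 on the left was at 19.6 and 39.5 TPM and MRPL11 on the right at 120 and 130 TPM. The genes there that differed over 10-fold in median were OVOL1 and CST6, lower with SMAD4, and CNIH2 and TMEM151A, higher. C11orf86 was also higher without overlap (medians 0 and 1.09 TPM), with no fold because 1 median was 0. Near SLC28A1, 0 of 9 were without overlap, and ZNF592 and PDE8A, its neighbours, were expressed in both groups (PDE8A at 30.03 and 30.31 TPM) although SLC28A1 was within the counting floor. Near SLC28A2, 4 of 19 were lower with SMAD4, among them GATM and DUOX2 (medians 4.38 and 0.010 TPM), and SHF was the neighbour on the left. Near SLC28A3, 1 of 9 was lower, and the neighbours RMI1 and NTRK2 overlapped.

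Once inside the cell, gemcitabine is phosphorylated first by deoxycytidine kinase (DCK), is inactivated by cytidine deaminase (CDA), and acts on DNA synthesis and on ribonucleotide reductase. A list of 26 genes held 5 that activate such analogues, 7 that inactivate them, 4 targets, 5 efflux pumps and 5 other nucleoside enzymes, and 25 had a mean of at least 1 TPM in either group. Ranges did not overlap for 6 of them, 4 higher and 2 lower with SMAD4, and 19 overlapped, against a background of 30.6% without overlap. The median difference of the list was 0.20 on the log2(TPM + 1) scale, against 0.01 over all genes. Of these 6, ABCG2 is an efflux pump gene and ENTPD1 and PNP encode other nucleoside enzymes. All 5 activating genes overlapped, with log2 differences between -0.57 and 0.53, DCK among them at 34.0 to 42.5 TPM and 27.5 to 50.4 TPM. CDA was lower with SMAD4, at a median of 1.49 TPM (0.328 to 8.96) against 26.5 TPM (17.9 to 57.5).

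Among the targets, RRM2, the regulated subunit of ribonucleotide reductase, was at a median of 339 TPM with SMAD4 and 121 TPM in the SMAD4-low libraries, and RRM2B at 27.7 and 9.25 TPM. The efflux pump gene ABCG2 was at a median of 86.3 TPM with SMAD4 and 3.33 TPM without. The purine nucleoside phosphorylase gene PNP was lower with SMAD4, at 35.1 and 80.7 TPM. By label, 0 of the 26 genes were called by edgeR, alone or with the SMAD4 group as a term.

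**Figure D5:**
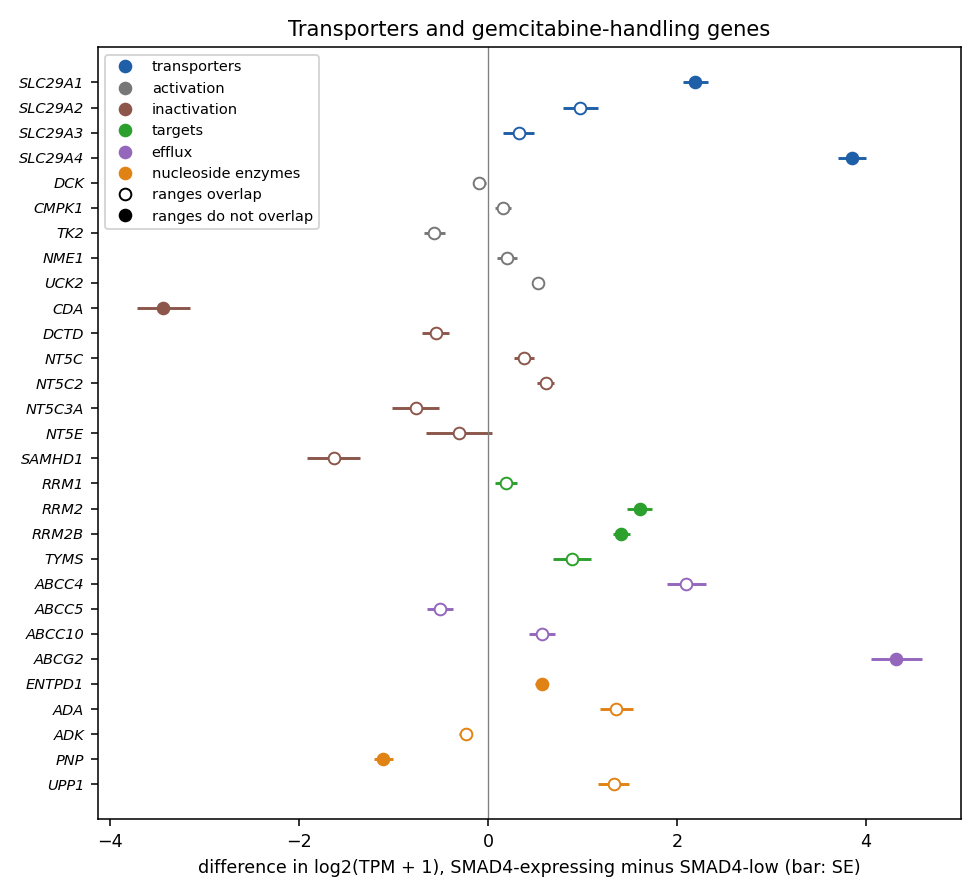
Difference in mean log2(TPM + 1), SMAD4-expressing minus SMAD4-low libraries, with its SE (horizontal bars), for the 4 transporter genes and 25 gemcitabine-handling genes with a mean of at least 1 TPM in either group, coloured by role; filled points mark ranges that do not overlap. SLC29A4 at 3.85 and ABCG2 lie farthest to the right, CDA lies farthest to the left, and the 5 activating genes are open points.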

How the data were processed

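Messenger RNA of 26 SCDCLs was measured in 1 strand-specific, poly(A)-selected library each. The authors used kallisto 0.46.1 with Ensembl transcripts of GRCh38. The deposited table holds TPM, estimated counts (expected counts, scaled from TPM and transcript length to the library total), mean transcript lengths and resampled counts. How strand was set in kallisto is not given in the sources used here. The 780 columns of resampled counts were not used, so counting error was taken from the counts. Positions came from GENCODE 44 (36315 of 41078 genes matched) and promoter sequences from RefSeq's GRCh38.p14 table.

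The members and gene lists were chosen with earlier results of these data known. Named genes were the members, the SMAD4, VIM, CDH1 and CDKN2A checks, up to 6 of the gemcitabine list besides DCK (named after its values were seen), the nearest expressed genes on each side and those over 10-fold different within 1000 kb, and the 3 genes most like a member. PSAP, DDIT4, LRRC20 and the named keratin and FN1 markers were chosen after their values were seen.

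SMAD4 groups (SMAD4 TPM under 1 or not) were described by median, range, and mean difference of log2(TPM + 1), with no test. Labels were tested on rounded estimated counts with edgeR 4.0.16 (R 4.3.3; TMM, filterByExpr, quasi-likelihood test, Benjamini-Hochberg), with DESeq2 1.42.0 and limma 3.58.1 as alternatives. p-values measure the spread between SCDCLs, each sequenced once. Correlations used 100000 permutations (Python 3.11.15, scipy 1.17.1). Permutations in leave-one-out runs are fewer. No 2 libraries agreed within counting noise (chi-square per degree of freedom at least 44.1 in 66 and 91 pairs). The scripts were tested on simulated data. The totals, 27035724 to 34945608 estimated counts, limit values of a few counts, and values of 3 counts or fewer were read as not detected.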

Additional observations from a re-analysis of the deposited data

How the results depend on the processing

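No paired analysis was possible because the labelled groups share no replicate numbers. For the labels alone, with the SMAD4 group as a term, and for the interaction, 0 members were called under median-of-ratios size factors, no filter on low counts, limma, DESeq2, and with each of the 26 libraries left out. Ranges did not overlap for 3 of the 7 members in CPM, with no floor on the mean, and for 2 once a mean of 1 TPM was required. The share over all genes (30.6%) was taken only with that mean required. The 3 of 7 therefore has no background beside it and is not read as a result. The 3 include SLC28A3, where library 2 with 2.88 counts is within the floor of 3. The count was also 3 with groups set by VIM against CDH1, which hold the same libraries, and without any 1 library. Neither check could lower the count, since leaving out a library cannot make separate ranges overlap. Of 7 member and group entries, 6 had an SD above the median gene, between 4 (median absolute deviation) and 6 under other scales and 5 to 6 with a library left out. The number of correlated pairs was 1 by Spearman's rho, in CPM and with any 1 library left out. For that pair the unadjusted permutation p was 0.0211 without libraries 22 and 23 and 0.0673 without libraries 18, 22 and 23. Neither was adjusted over the pairs. The log2 difference of SLC29A4 was between 2.13 (pseudocount 5) and 5.46 (pseudocount 0.1), and that of SLC28A3 between -1.61 and -0.08, since both lie near 0 in a group. Without library 22 the SD of SLC29A3 in the SMAD4-expressing libraries was 0.39. Depth limits SLC28A1, SLC28A2 and SLC28A3, whose values rest on at most 76.3 counts.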

Other observations

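The genes that varied most like the members among clones are given as descriptions, over the 12 or 14 libraries of a SMAD4 group and were picked from 8893 or 8739 genes. In the SMAD4-low libraries SLC29A1 was most like GPR89A, NCLN and DOLK (r = 0.89, 0.88 and 0.87), SLC29A2 was most like ISYNA1 (inositol-3-phosphate synthase), ACSF2 and ZSWIM9 (r = 0.91, 0.91 and 0.90), and SLC29A3 was most like GNG10, COA3 and ATOX1 (r = 0.90, 0.90 and 0.89). In the SMAD4-expressing libraries SLC29A1 was most like TUBG2, C1GALT1C1 and TYK2 (r = 0.93, 0.91 and 0.90) and SLC29A3 was most like ADAMTS15, RHOB and OSMR (r = 0.87 for each). No member had the same nearest genes in both groups.

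SLC29A4, on chromosome 7, was most like ENSG00000291095 (r = 0.85), QPRT (a NAD synthesis enzyme, r = 0.81) and GZF1 (r = 0.79) among the SMAD4-expressing clones, and 16 of its 50 most similar genes were on chromosome 16, which holds 5.06% of the genes compared. For SLC29A1 in the SMAD4-low libraries the commonest chromosome was 9, with 10 of 50 genes against 4.07%. These counts were made after the data had been seen and were not tested.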
